A study of Mus musculus with 6 samples.

Results

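CpG methylation was followed across 2 gene loci of mouse chromosome 3, Txnip (gene 56338) and Notch2 (gene 18129), in Tet2/3 double-knockout (DKO) and wild-type (WT) LSK cells. The Txnip locus covers 50 kb, with its first and last listed CpGs at 96340172 and 96389935 (mm9), from 21879 bases before the start of the gene to 28120 after it. The Notch2 locus covers 240 kb with CpGs from 97740397 to 97979723, from 77460 bases before the start to 162539 after it. Both were chosen from these same samples, because earlier results showed a run of DKO gain just past Txnip and another upstream of Notch2. The difference between DKO and WT at these loci is therefore given as a description. Windows of the loci that a fit over all autosomes called are named below, and these calls are no independent test of it. Of the 2491243 windows of 1 kb with a listed CpG, 290 lie in the loci, 50 around Txnip and 240 around Notch2.

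The samples were 3 DKO and 3 WT preparations of LSK cells, the fraction of bone marrow that carries Sca-1 and c-Kit and no lineage markers and contains the blood stem cells. They were measured by whole-genome bisulfite sequencing. The alleles, the way the genes were deleted, the age of the mice and the number of animals behind each sample were not among the labels. The labels call the samples biological replicates, and the permutation p-values compare these samples. In the quasi-binomial window test, p-values rest more on a spread shared across all tested windows than on the spread between replicates in the window itself. LSK cells are a mixture, so a change in the level within cells and a change in the mix of cells cannot be told apart.

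The DKO samples held 101957758, 111763872 and 83560585 read calls at CpGs, against 70917633, 72747248 and 70815948 in WT. Within the loci this came to 4.10 to 6.15 reads per CpG in DKO and 3.45 to 3.92 in WT, so reads were summed over windows. A segment of the Tet2 gene, on the same chromosome and known from the earlier results to be lost, held 0 read calls in each DKO sample and 109, 165 and 136 in WT. Tet3 was not checked in this way. The mitochondrial level, a gauge of cytosines left unconverted, was 1.71 ± 0.170% in DKO and 1.28 ± 0.0797% in WT (SD, n = 3 each). The autosomal level was 81.6 ± 0.826% in DKO and 80.8 ± 0.314% in WT.

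TET enzymes oxidise 5-methylcytosine to 5-hydroxymethylcytosine and further forms, a path by which methylation is removed, and they act mostly at enhancers and around promoters. Bisulfite sequencing reads 5-methylcytosine and 5-hydroxymethylcytosine alike, so each level below is the sum of both. Txnip encodes an arrestin-family protein that binds thioredoxin and lowers glucose uptake, and its transcription is driven by glucose through the factors MondoA and ChREBP. In mouse bone marrow, Txnip is known for its part in keeping blood stem cells quiescent. Notch2 encodes a receptor that is cleaved after binding a ligand, and its freed intracellular part joins RBPJ on DNA to switch on genes such as Hes1. Notch2 is known in blood for the marginal zone B cell lineage and for its role in stem cells during recovery of the marrow.

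The 250 bases before each RefSeq start are shown because both stayed almost free of methylation in every sample, beside loci where DKO levels were higher. The sequences are RefSeq's (GRCm38.p6), and their mm9 positions were found from the spacing of their CpGs, of which all 24 (Txnip) and all 41 (Notch2) in the 300 bases around the start were listed. Capitals mark CpGs, and both lie on the plus strand, at chr3:96361630-96361879 and chr3:97817211-97817460.
Txnip: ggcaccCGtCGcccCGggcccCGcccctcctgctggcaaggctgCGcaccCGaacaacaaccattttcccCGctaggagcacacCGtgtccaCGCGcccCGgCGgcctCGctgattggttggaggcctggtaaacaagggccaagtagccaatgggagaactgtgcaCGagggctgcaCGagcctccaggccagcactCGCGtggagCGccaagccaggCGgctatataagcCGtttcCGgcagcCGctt
Notch2: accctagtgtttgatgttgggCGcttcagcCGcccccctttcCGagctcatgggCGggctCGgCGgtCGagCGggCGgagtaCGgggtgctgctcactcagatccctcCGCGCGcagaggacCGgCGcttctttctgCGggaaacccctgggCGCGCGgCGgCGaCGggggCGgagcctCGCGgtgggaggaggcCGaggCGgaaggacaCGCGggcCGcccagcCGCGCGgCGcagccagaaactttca
The Txnip stretch holds 22 CpGs at 66.8% G and C, and the Notch2 stretch 34 at 72%. The sequence CACGAG occurs at -85 and -74 from the Txnip start, and 0 times before Notch2; it was searched on both strands, as were the motifs below. Of 32851 RefSeq promoters, 5.37% hold it in the same 250 bases and 0.262% hold at least 2 copies. CACGAG is a case of CACGNG, the E-box core that ChREBP and MondoA sites contain, which occurred 4 times before Txnip and 1 time before Notch2 (23.5% of promoters hold it). CCAAT, the box bound by NF-Y, occurred 2 times before Txnip and 0 times before Notch2 (33.8% of promoters). TATAA, the core of the TATA box, stands at -25 from the Txnip start and is absent from the Notch2 window (22.8%). GGGCGG, the GC box bound by Sp1, occurred 1 time before Txnip and 5 times before Notch2 (32.7%). TGGGAA, the core read by RBPJ, occurred in neither (21.6%).

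The Txnip promoter was nearly unmethylated in both genotypes. Over the 300 bases around the start (chr3:96361630-96361929, start at 96361880), the level was 0, 1.03 and 0% in DKO and 0, 0 and 1.35% in WT. These rest on 133, 97 and 124 reads in DKO and 72, 127 and 74 in WT, with means of 0.344 ± 0.60% and 0.450 ± 0.78% (SD, n = 3 each). The groups overlapped, and a count of 0 would allow up to 2.26% and 2.42% in DKO replicates 1 and 3 and up to 4.17% and 2.36% in WT replicates 1 and 2. At the CpGs inside the CACGAG copies, DKO had 0 methylated reads of 13 and of 15, and WT 0 of 10 and of 9. At these read numbers 0 allows up to 23.1% and 20.0% in DKO and 30.0% and 33.3% in WT.

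A run of higher DKO methylation lay just past the 3' end of Txnip. It spans chr3:96366001-96368000, 4121 to 6120 bases after the start and 221 to 2220 bases past the end of the gene, whose length is 3901 bases. The annotated long non-coding RNA Gm15441 reaches from -2189 to 8844 bases relative to the Txnip start and so covers the gene and this run. The level over its 23 CpGs was 62.8, 72.7 and 67.6% in DKO and 23.3, 18.3 and 29.3% in WT. Every DKO sample was thus more than 30 points above every WT sample, and the 95% Wilson intervals, which cover counting error only, did not meet. The lowest DKO bound was 55.9% and the highest WT bound 37.8%, on 71 to 199 reads per DKO sample and at most 123 per WT sample. The means were 67.7 ± 4.93% in DKO and 23.6 ± 5.47% in WT (SD, n = 3 each), a difference of 44.1 points.

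Nearly all CpGs of the run were higher in DKO, which the choice of the run by this same contrast favours. The CpGs of 1 run are not replicates. With reads pooled by genotype, 22 of the 23 CpGs were higher in DKO and 1 was lower. Levels under 50% were found at 3 CpGs in DKO and at 20 in WT, and levels of 80% or more at 8 in DKO and 1 in WT. Restricted to the 19 CpGs read in all 6 samples, with the same weight for each, the level was 67.6 ± 4.34% in DKO and 23.3 ± 2.57% in WT, a difference of 44.3 points.

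In bins of 500 bp, the groups were apart in every bin from the end of the Txnip gene to just past the run. A low bin followed, with higher DKO levels again beyond it. The bin at 1121 to 1620 bases after the start was at 0% in all 6 samples. At 1621 to 2120 bases the level was 12, 5.33 and 2.17% in DKO and 0% in each WT sample, without overlap. The 2.17% rests on 46 reads and the 0 of WT replicate 3 on 40, so these low values do not place a start of the gain. In the bins from 2121 to 3620 bases the groups overlapped. At 3121 to 3620 bases the level was 7.14, 55.0 and 31.8% in DKO and 9.09, 4.35 and 4.55% in WT, with DKO replicate 1 inside the WT range. From 3621 bases on, where the gene ends, it was 40, 50 and 43.6% in DKO and 8.57, 23.7 and 12.1% in WT, and the groups were again apart. Within the run, the means were farthest apart at 5121 to 5620 bases, with 72.2, 76 and 75% in DKO and 3.45, 13.9 and 26.5% in WT. At 6121 to 6620 bases, just past the run, it was 33.3, 25 and 36.1% in DKO and 0, 14.3 and 0% in WT, still without overlap. In the bin from 6621 bases, which holds 10 CpGs, the level was 0, 6.12 and 6.90% in DKO and 4.55, 0 and 0% in WT. Just beyond, in the window at chr3:96369001-96370000, it was 100, 86.5 and 100% in DKO and 69.2, 74.0 and 72.0% in WT.

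**Figure D1:**
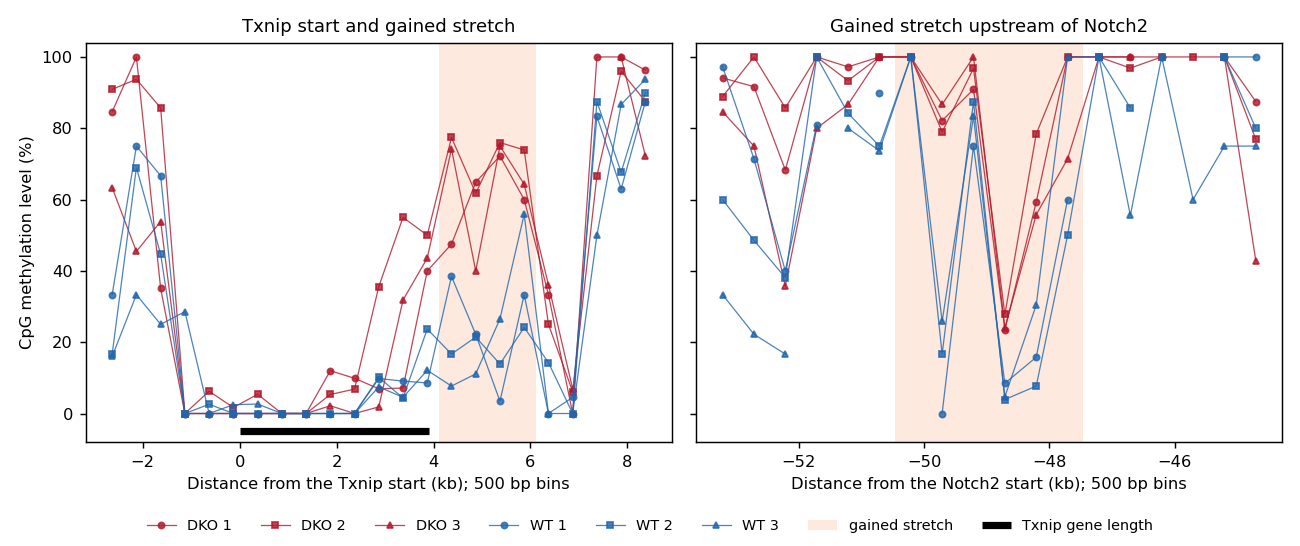
CpG methylation level (%, y axis) in 500 bp bins with at least 5 reads, against distance from the Txnip start (left) and the Notch2 start (right) in kb; each line is 1 sample, DKO in red and WT in blue, the shading marks the gained stretch and the black bar the Txnip gene length. All 6 samples lie near 0 over the Txnip start, and the DKO lines stand above the WT lines over most of both shaded stretches.

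The 1 kb windows were tested across all autosomes with a quasi-binomial model and Benjamini-Hochberg adjustment, and a window was called at an adjusted p under 0.05 and a difference of at least 10 points. In the Txnip locus 42 windows had the reads to be tested, and 4 were called higher in DKO and 0 lower. Over all 774732 tested windows 0.49% were called higher and 0.00723% lower. The share called higher varied with the mean level of a window over all samples. It was 0.131% at levels under 10%, 3.13% at 10 to 50%, 2.73% at 50 to 80% and 0.0772% at 80% or more. The last class held 638462 of all tested windows but only 22 of the 42 at Txnip. Of the 4 calls, 2 lay at 10 to 50% and 2 at 50 to 80%. With 1 sample fewer, the 4 calls became 0 without DKO replicate 1, 0 without DKO replicate 2, 3 without DKO replicate 3, 0 without WT replicate 1, 1 without WT replicate 2 and 2 without WT replicate 3. Calls over all autosomes fell as well, to between 29 and 749 of 3854. The difference over the run past Txnip was 41.4 to 46.9 points. Its bounds were set by the calls on all 6 samples and kept here, so this range is no check of those calls. Of the 2 windows of the run, 1 was called without DKO replicate 3, 1 without WT replicate 3 and 0 without any other sample. By limma on log2 ratios of methylated to unmethylated reads 0 windows were called over all autosomes, so the 0 at Txnip says nothing about this locus. By limma 11 of the 42 had an unadjusted p under 0.05, against 7.12% of all tested windows. Called windows are named for where they lie, and nothing is read from these numbers, since this contrast chose the locus.

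The other called windows lie upstream of Txnip. At chr3:96353001-96354000, 8879 to 7880 bases before the start, the level was 86.5, 80.9 and 89.2% in DKO and 29.5, 41.9 and 45.2% in WT, and the groups were far apart. At chr3:96359001-96360000, 2879 to 1880 bases before the start, it was 87.1, 91.5 and 60.6% in DKO and 54.8, 38.0 and 18.6% in WT. The samples of each group differed widely there, and the lowest DKO value stood only just above the highest WT value.

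The windows that flank the run were not called, though their samples did not overlap. The window before it, at chr3:96365001-96366000, had 25.4, 52.2 and 39.3% in DKO and 8.82, 16.4 and 9.09% in WT. The window after it, at chr3:96368001-96369000, had 9.48, 10.8 and 23.1% in DKO and 3.03, 5.56 and 0% in WT. Both lay at lower levels than the run, and the second had the smaller difference, 11.6 points against 27.5.

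Across the locus as a whole the difference was smaller and mostly upward. The DKO mean was the higher in 37 of the 42 tested windows (58.2% of all tested windows), by at least 10 points in 12 (8.42%), and it was at least 10 points lower in 0. All 3 DKO samples lay above all 3 WT samples in 13 windows (9.05% of all tested windows) and below them in 2 (3.75%). The median difference was 4.77 points, against 0.93 over all tested windows. These backgrounds come mostly from windows at 80% or more. By level, all DKO samples lay above all WT samples in 3 of 6 Txnip windows under 10% and in 4 of 6 at 10 to 50%. At 50 to 80% this held in 2 of 8, and at 80% or more in 4 of 22. The shares over all tested windows of these classes were 10.7, 19.2, 19.1 and 7.18%. Median differences were 4.23, 23.3, 11.0 and 4.40 points at Txnip, and 0.510, 5.16, 5.77 and 0.606 over all. Over all reads of the locus the level was 59.3 ± 3.50% in DKO and 51.5 ± 2.41% in WT (SD, n = 3 each). Without the 4 called windows it was 57.9 ± 3.67% and 53.2 ± 2.53%, and the groups then overlapped.

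The Txnip gene length stayed low in both genotypes. It averaged 6.47, 11.0 and 4.45% in DKO and 2.46, 4.71 and 3.35% in WT, and DKO replicate 3 lay below WT replicate 2. Upstream of the start the level was 66.8 ± 4.92% in DKO and 57.1 ± 2.36% in WT, without overlap. Without the called windows it was 65.1 ± 5.05% in DKO and 59.1 ± 3.05% in WT, and the groups overlapped. Past the gene it was 68.5 ± 1.83% in DKO and 63.1 ± 4.04% in WT, a span that includes the run. Without the run it was 66.9, 69.0 and 70.0% in DKO and 69.9, 69.2 and 61.6% in WT, which overlapped and differed by 1.71 points in the means. Polr3gl, which encodes a subunit of RNA polymerase III, ends 19915 bases after the Txnip start and runs towards it from beyond the locus. In the gap before that end, the window at chr3:96380001-96381000 had 7.03, 21.7 and 9.03% in DKO and 1.59, 3.85 and 0% in WT, again without overlap. A window at chr3:96384001-96385000 ran the other way, with 9.62, 15.7 and 15.6% in DKO and 31.6, 17.8 and 16.7% in WT; DKO was lower in every sample, by 8.39 points in the means.

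**Figure D2:**
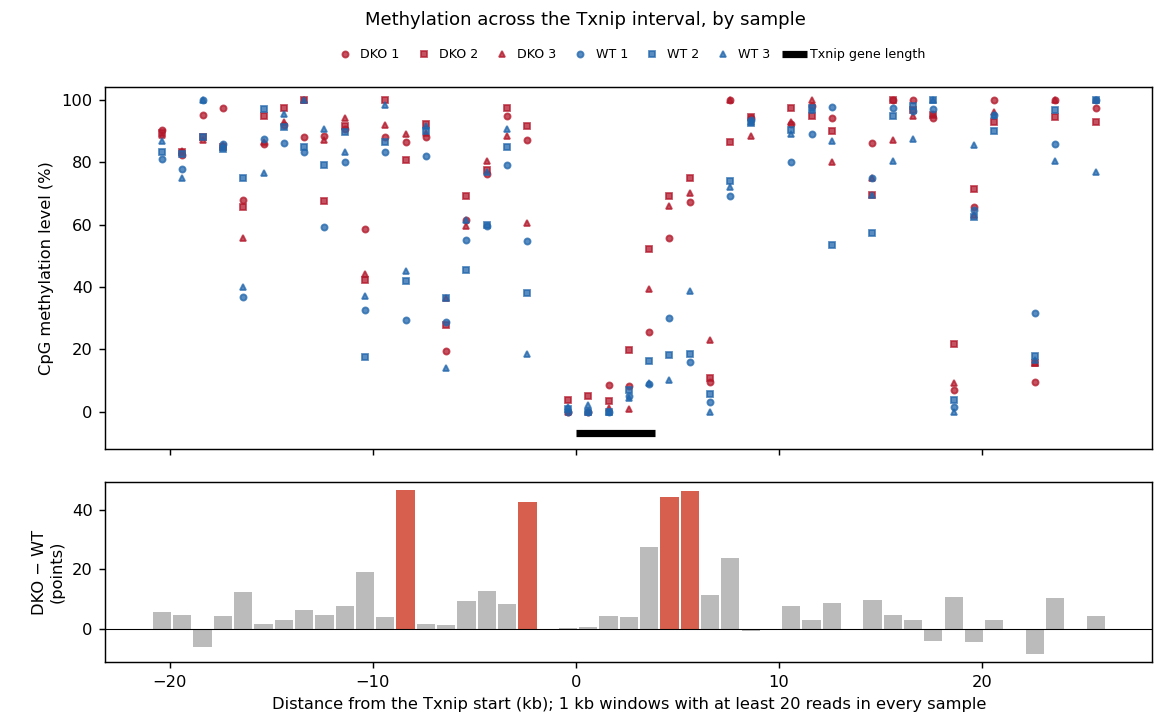
Upper panel: CpG methylation level (%) in each tested 1 kb window of the Txnip locus against distance from the Txnip start in kb, 1 point per sample, DKO red and WT blue, with the gene length as a black bar. Lower panel: DKO minus WT difference of the group means in points, with the 4 called windows in red; those differences lie between 42.6 and 46.6 points, and the bars over the gene start are near 0.

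The Notch2 promoter was nearly unmethylated too. Over chr3:97817211-97817510 (start at 97817461) the level was 0% in the 3 DKO samples, on 124, 186 and 138 reads, and 0, 0.417 and 0% in WT, on 46, 240 and 160 reads. A count of 0 allows up to 2.42, 1.61 and 2.17% in the DKO samples and up to 6.52% in WT replicate 1. The groups overlapped at 0.

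The run of gain at Notch2 lay far upstream of the gene. It spans chr3:97767001-97770000, 50460 to 47461 bases before the start, inside the annotated span of Gm5544, a protein-coding gene model reaching from -83365 to -46520 relative to the Notch2 start. The level over its 38 CpGs was 64.4, 67.4 and 52.5% in DKO and 22.3, 26.7 and 26.9% in WT. All DKO samples were above all WT samples, and DKO replicate 3 was the lowest of its group. Its Wilson interval, 45.2 to 59.6%, still lay above the highest WT bound, 34.3%. The reads were 188, 233 and 181 in DKO and 130, 150 and 167 in WT. The means were 61.4 ± 7.87% in DKO and 25.3 ± 2.60% in WT (SD, n = 3 each), a difference of 36.1 points. The windows on either side, chr3:97766001-97767000 and chr3:97770001-97771000, had too few reads to be tested. The bounds of the run therefore do not show where the gain ends. Farther upstream, the untested window chr3:97761001-97762000 had 68.4, 75.4 and 57.9% in DKO and 28.2, 23.1 and 0% in WT. It was chosen after its values were seen and had as few as 8 reads in a sample. In chr3:97770001-97771000 the groups overlapped.

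The CpGs of the Notch2 run were less uniform than those past Txnip. Of the 31 CpGs with at least 5 reads in each genotype, 24 were higher in DKO, 3 lower and 4 equal, in a run that the same contrast chose. Levels under 50% were found at 10 CpGs in DKO and at 23 in WT, and levels of 80% or more at 14 in DKO and 6 in WT. Over the 23 CpGs read in all samples, equally weighted, the level was 59.1 ± 4.66% in DKO and 28.5 ± 5.68% in WT, a difference of 30.6 points.

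The windows of the run differed in level. At chr3:97767001-97768000 the level was 88.9, 87.1 and 89.2% in DKO and 0, 47.4 and 37.8% in WT. The 0 of WT replicate 1 rests on 23 reads, all in the second 500 bp. In those 500 bp alone DKO had 82.1, 78.9 and 86.7% and WT 0, 16.7 and 25.8%, while in the first 500 bp the 5 samples with reads were at 100%. At chr3:97769001-97770000 the level was 64.3, 80.8 and 57.6% in DKO and 25.0, 13.3 and 51.5% in WT, and WT replicate 3 came close to the DKO samples. The window between them, which was not called, had 40, 48.5 and 32.9% in DKO and 27.7, 23.9 and 14.4% in WT. Its second 500 bp, with 11 CpGs, was the low point of the run, at 23.5, 27.8 and 24.0% in DKO and 8.47, 3.92 and 4.71% in WT.

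In the Notch2 locus 148 windows were tested, 92 others had too few reads or CpGs, and 2 were called higher and 0 lower. With 1 sample fewer, the count was 0 without DKO replicate 1, 2 or 3, 0 without WT replicate 1 or 3, and 1 without WT replicate 2. The difference over the run, with its bounds kept as set on all 6 samples, was 33.1 to 40.6 points, which is no check of the calls. The 1 window called without WT replicate 2 lay in the run. With windows shifted by 500 bp the count was 6, of which 2 overlapped the run. By limma, which called 0 windows over all autosomes, 17 of the 148 had an unadjusted p under 0.05 (7.12% of all tested windows). The DKO mean was the higher in 119 windows (58.2% of all tested windows), by at least 10 points in 28 (8.42%), and it was at least 10 points lower in 1. All DKO samples lay above all WT samples in 31 windows (9.05%) and below them in 3 (3.75%). The median difference was 2.47 points, against 0.93 over all tested windows. By level, all DKO samples lay above all WT samples in 1 of 3 Notch2 windows under 10% and in 6 of 10 at 10 to 50%. At 50 to 80% this held in 7 of 16, and at 80% or more in 17 of 119. The shares over all tested windows of these classes were 10.7, 19.2, 19.1 and 7.18%. Median differences were 8.15, 18.4, 17.6 and 1.62 points at Notch2, and 0.510, 5.16, 5.77 and 0.606 over all.

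All DKO samples lay above the WT samples both upstream of Notch2 and within the gene. Upstream of the start, the run included, it was 80.9, 83.4 and 80.5% in DKO and 75.6, 69.8 and 71.8% in WT, a difference of 9.15 points. Without the run it was 81.7, 84.3 and 82.0% in DKO and 78.4, 72.1 and 74.7% in WT, a difference of 7.57 points, and the groups still did not overlap. Over the 136830 bases of the gene it was 85.3, 86.2 and 83.4% in DKO and 82.0, 80.1 and 82.1% in WT, 3.59 points apart in the means and also without overlap. Past the gene, towards the disintegrin gene Adam30, DKO had 91.4 ± 2.14% and WT 90.9 ± 2.15% (SD, n = 3 each), and the samples overlapped. The level of the whole locus was 84.6 ± 1.29% in DKO and 79.7 ± 1.68% in WT.

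Some further windows of the Notch2 locus are described here, chosen after their values were seen. The window at chr3:97744001-97745000, near the far end of the upstream sequence, had 59.1, 53.8 and 77.4% in DKO and 44.4, 26.2 and 33.3% in WT. Inside the gene the largest difference, 34.9 points, stood at chr3:97840001-97841000, with 77.1, 76.2 and 84.8% in DKO and 37.1, 37.5 and 58.8% in WT. In the window just downstream of the one that holds the start, chr3:97818001-97819000, the level was 15.9, 8.20 and 15.1% in DKO and 4.60, 5.48 and 1.96% in WT. In each of these the groups did not overlap, and none was called. At chr3:97878001-97879000 the order was reversed, with 86.4, 91.1 and 66.7% in DKO and 95.7, 97.1 and 91.7% in WT.

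**Figure D3:**
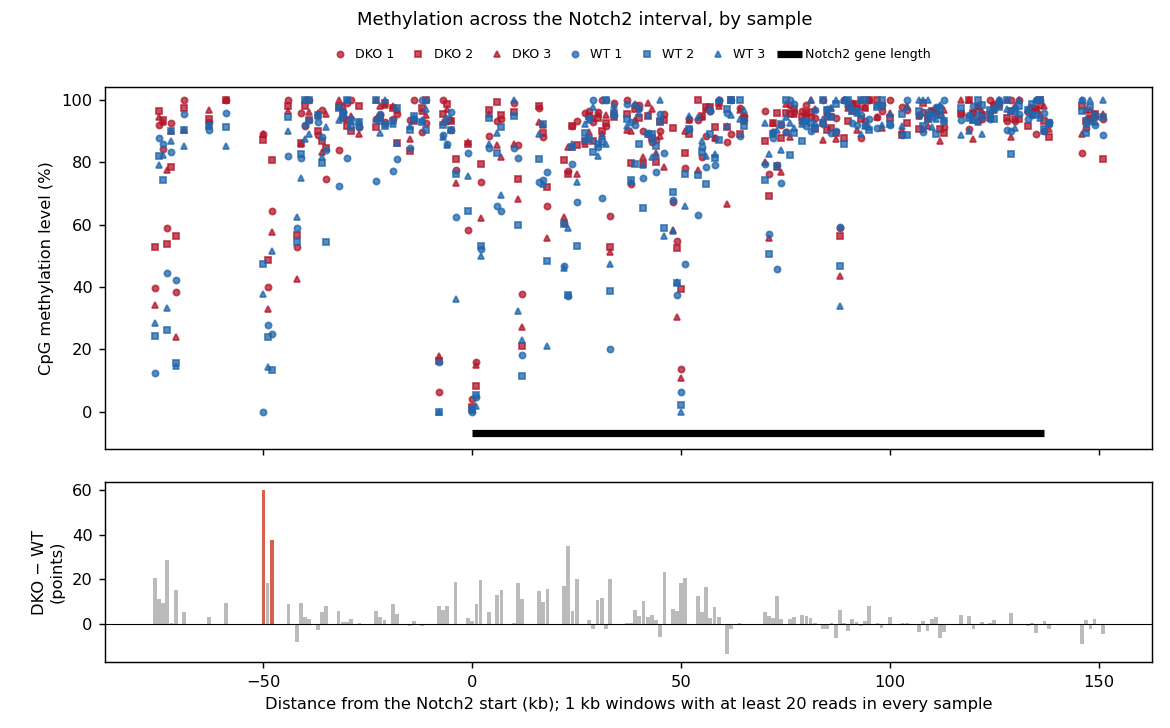
Upper panel: CpG methylation level (%) in each tested 1 kb window of the Notch2 locus against distance from the Notch2 start in kb, 1 point per sample, DKO red and WT blue, with the gene length as a black bar. Lower panel: DKO minus WT difference in points, with the 2 called windows in red at 60.0 and 37.6 points; most of the gene lies near 100% in every sample.

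**Figure D4:**
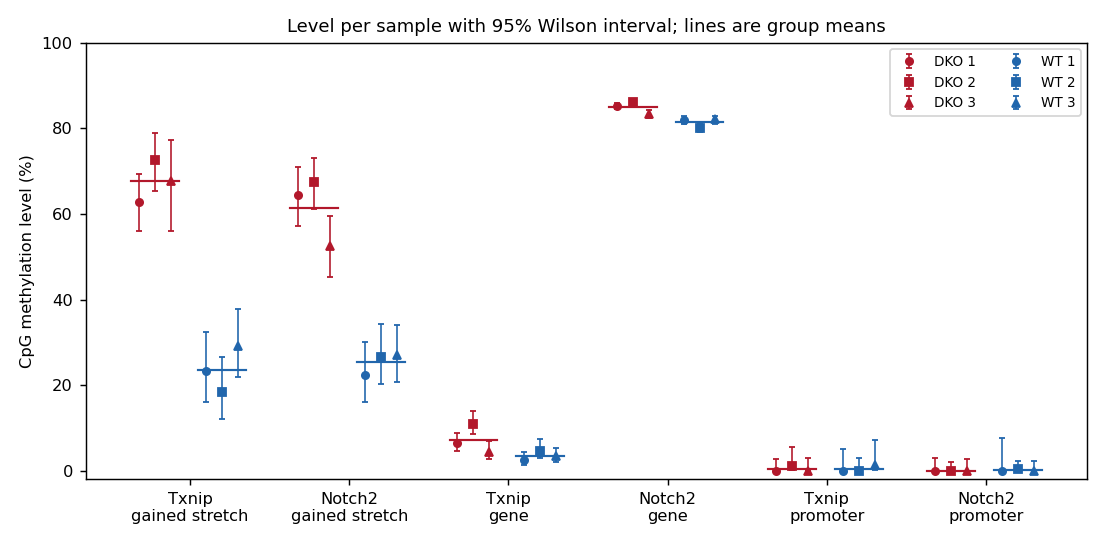
CpG methylation level (%, y axis) of each sample with its 95% Wilson interval, DKO in red left of WT in blue, for the gained stretches, the gene lengths and the 300 base promoters of Txnip and Notch2; horizontal lines are group means. The DKO samples of the stretches sit between 52.5 and 72.7%, above WT at 18.3 to 29.3%, while both promoters lie near 0 in both genotypes.

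Coverage of the loci, which the choice of the loci did not use, overlapped between the genotypes. The Txnip locus took 38.3, 37.0 and 36.2 read calls per 1000000 autosomal calls in DKO and 36.3, 39.8 and 40.3 in WT (two-sided exact permutation p = 0.3). The Notch2 locus took 152.5, 159.9 and 148.6 in DKO and 147.1, 148.7 and 141.8 in WT (exact permutation p = 0.2). With 3 samples against 3 the smallest possible p is 0.1.

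Called windows at most 1 kb apart form 181 regions of at least 2 windows that were higher in DKO. Ordered by the difference, the run past Txnip is number 5 and the run upstream of Notch2 number 33; their differences of 44.1 and 36.1 points stand beside a median of 28.9. Both are poorer in CpGs than most, with 11.5 and 12.7 CpGs per kb against a median of 16.5. Likeness to other regions was measured as the root-mean-square difference of the 6 sample levels, and since all 181 were picked by the same contrast it is a description. Nearest to the Txnip run were chr19:4185001-4190000 (6.98 points, with 63.2 ± 7.80% in DKO and 30.0 ± 3.14% in WT), a region of chromosome 18 (7.17 points) and the Notch2 run itself (7.47 points). The nearest placed promoter to the first is that of Pold4, a DNA polymerase delta subunit, 44.4 kb away. Nearest to the Notch2 run were chr16:30552001-30554000 (6.10 points, 63.0 ± 6.02% in DKO and 27.1 ± 6.85% in WT), 2.34 kb from the start of Tmem44, the same region of chromosome 18 (6.55 points) and chr10:120247001-120250000 (6.70 points, 60.4 ± 9.41% in DKO and 31.4 ± 6.07% in WT). The nearest placed promoter to the last is that of 4921513I03Rik, 45.7 kb away.

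Among other Notch pathway genes, the promoters with enough reads were low in methylation in both genotypes. A list of 37 ligands, receptors, processing enzymes, nuclear partners and targets was used, and 30 of their promoters could be placed. Of 29 windows holding a start that were tested, 0 were called higher and 0 lower by the quasi-binomial test. Of the 14273 such windows in all, 0.631% were called higher and 0.0911% lower. In the list, 4 had an unadjusted p under 0.05 (19.5% of all such windows). By limma, 3 were at that level (7.88%). Limma called 0 windows over all autosomes, so its 0 calls in the list say nothing about these genes. The 26 promoters with at least 20 reads in every sample were all under 10% in both groups. Low levels were usual for promoters with as many reads, of which 88.6% were under 10% in WT. The DKO mean was higher in 10, lower in 1 and equal in 15, and over all 11702 promoters with as many reads it was higher in 43.3%. The median difference was 0 points, both in the list and over all these promoters.

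Of these 26 promoters, 3 are named for the size of their difference. The promoter of Fbxw7, part of the ubiquitin ligase that marks the Notch intracellular part for breakdown, had 0, 0 and 19.05% in DKO and 0% in each WT sample. That of Rfng, a fringe enzyme that adds sugars to Notch, had 17.2, 0 and 0% in DKO and 0% in each WT sample. In both, 1 DKO sample carried the difference and the groups overlapped. Dll3, a ligand-like inhibitor of Notch signalling, had 9.09, 6.96 and 5.71% in DKO and 2.7, 0 and 5% in WT. The groups did not overlap, but only just, with as few as 40 reads in a sample. In 2 of the 26 promoters all DKO samples lay above all WT samples, and in 0 below (3.82 and 0.718% of all such promoters). Of the placed promoters with fewer than 20 reads in a sample, chosen here after their values were seen, Notch3, a receptor, ran the other way. It had 4.35, 7.41 and 8.70% in DKO and 16, 16.2 and 33.3% in WT, without overlap, with as few as 15 reads in a sample. Maml2, a coactivator of the Notch complex, averaged 16.4 ± 14.5% in DKO and 7.14 ± 12.4% in WT, and Dlk1, a ligand-like protein, 31.9 ± 20.7% in DKO and 28.7 ± 18.5% in WT (SD, n = 3 each); both overlapped.

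For Txnip, the list held 22 arrestins, thioredoxin system genes and glucose-responsive partners, of which 16 had a placed promoter and 16 windows were tested. The quasi-binomial test called 0 higher and 0 lower, with 2 at an unadjusted p under 0.05 (19.5% of all such windows). By limma, which called 0 windows over all autosomes, 0 were at that level (7.88%). All 14 promoters with enough reads were under 10% in both groups, as were 88.6% of all such promoters in WT. The DKO mean was higher in 1 (43.3% of all such promoters), lower in 4 and equal in 9. Mlxipl, which encodes ChREBP, had 0% in each DKO sample and 0, 2.38 and 22.2% in WT, where replicate 3 alone carried the difference. Mlxip, which encodes MondoA, had 0, 0.44 and 0% in DKO and 2.08, 0 and 0% in WT. Txnrd2, the mitochondrial thioredoxin reductase, had 0% in each DKO sample and 2.20, 0 and 0% in WT. In all 3 genes the groups overlapped.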

How the data were processed

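The authors deposited 1 table of counts: for each sample and CpG, how many reads there were and how many of these were methylated, not normalised. The submitters' processing notes name BSMAP 2.74 and mm9. Read filters, duplicate removal and trimming: not given in the sources used here. Duplicates may remain, so intervals cover counting error only. The loci and gene lists were chosen with earlier results of these data known.

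A level is methylated over all reads. Reads were summed over 1 kb windows; each sample had to have 20 reads, over at least 3 CpGs, for a window to be tested (quasi-binomial model, Pearson dispersion moderated as in limma 3.58.1 squeezeVar with a floor of 1, F test, Benjamini-Hochberg adjustment over all 774732 autosomal windows; Python 3.11.15, R 4.3.3). The test was also run on simulated data with the same noise setting in every window, which is no check of the calls in these samples. A level of 0 at 20 reads allows up to 15.0%. In a called window the prior of 23.7 degrees of freedom outweighs that window's own spread.

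Starts were placed on mm9 by matching the CpG spacing of RefSeq promoters to the table (at least 6 CpGs, 80% of them listed, no other CpG listed, 1 place only): of 32851 sequences, 18541 had enough CpGs and 18234 were placed once. Gene ends are distances from the start in GRCm38.p6; the 32 promoters placed near or between the genes have the same spacing in both builds. Named from the lists are called genes, otherwise the 3 with the largest promoter difference; named like regions are the 3 nearest to each run. The 500 bp bins, and the levels without the runs, were described after their values were seen. There were 0 columns of other samples, and no replicates agreed within sampling noise. Tried alternatives were other read minimums, windows, tests, dispersion, CpG weights, the replicate block and leaving out each sample.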

Additional observations from a re-analysis of the deposited data

How the results depend on the processing

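The levels of both runs, both promoters and the whole Notch2 locus moved by less than the spread between replicates under every alternative tried. Leaving out each sample in turn, the difference was 41.4 to 46.9 points for the Txnip run, 33.1 to 40.6 for the Notch2 run, 6.28 to 9.74 for the whole Txnip locus and 4.00 to 5.66 for the whole Notch2 locus. The runs kept the bounds that the calls on all 6 samples had set, so their ranges do not test the gain. Without its called windows the whole Txnip locus differed by 4.68 points.

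The calls depend on the processing, and the cause was not tested. The number called was 3854 over all autosomes, 4 at Txnip and 2 at Notch2. It was 304 over all autosomes, 0 at Txnip and 0 at Notch2 with a minimum of 10 reads, 271, 0 and 0 with 40 reads, and 0, 0 and 0 with 500 bp windows or by limma. Unadjusted p-values under 0.05 numbered 12 at Txnip and 32 at Notch2 in the quasi-binomial test (9.27% of all tested windows), 13 and 37 with 10 reads (8.29%), 5 and 13 with 40 reads (10.3%), 5 and 15 with 500 bp windows (9.42%), and 11 and 17 by limma (7.12%). Shifted windows gave 6 calls at Notch2. Dispersion taken from the deviance, added after the data were seen, gave 2187 over all autosomes, 4 at Txnip and 1 at Notch2. Leaving out each sample gave 29 to 749 over all autosomes, 0 to 3 at Txnip and 0 to 1 at Notch2. Both gene lists had 0 calls under every setting. With 500 bp windows, limma or the replicate block this was fixed, since 0 windows were called over all autosomes.

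With the replicate number as a block, 0 windows were called over all autosomes, 0 at Txnip and 0 at Notch2, with 10 and 27 at an unadjusted p under 0.05 (8.29% of all tested windows). Deviations of same-numbered samples correlated at 0.00332 to 0.00359 over windows, so the numbers were not taken as a pairing, though each sample correlated best with its own number. Depth of about 3 to 6 reads per CpG limits single CpGs and 500 bp bins.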
